A study of Mus musculus with 15 samples.

Results

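Nfatc1, Nfatc2, Nfatc3 and Nfat5, the NFAT genes named for this report, were described as 4 of 55536 annotated mouse genes, by gene level, by annotated transcript and by exon use. They were chosen by gene symbol, matched to Ensembl identifiers in GENCODE M21, and the rule uses no measured value. The RNA came from OT-I cells, CD8+ T cells whose transgenic T cell receptor recognises the ovalbumin peptide SIINFEKL, which the study's methods take from Rag1-/- or Rag2-/- donors that carry the congenic marker CD45.1. They were transferred into WT C57BL/6J recipients, and 5 samples per group were sequenced. In the Ag group the recipients received the peptide with a rat IgG control. In the Ag+Costim group they received the peptide with agonist antibodies to the costimulatory receptors OX40 (CD134) and 4-1BB (CD137). All 10 samples were OT-I cells sorted at harvest as CD8+ CD45.1+ Vα2+ Vβ5+ cells from spleen and lymph nodes, on day 4 by the labels and somewhat earlier by the methods. Every donor cell thus carried 1 receptor specificity, and the group contrast is the antibody treatment of the recipient. The labels give no age or sex, and the methods give mixed ages and both sexes for the whole study. Nothing in the labels ties a sample to one recipient. The paper's legends call the samples biological replicates and for the splicing data also give 5 mice per group. The p-values measure the spread between these samples. The Naive samples were not analysed here.

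NFAT proteins are transcription factors that carry a Rel-type DNA-binding domain and recognise a GGAAA core. NFATc1, NFATc2 and NFATc3 lie phosphorylated in the cytoplasm of a resting T cell. Receptor signalling raises calcium, calmodulin activates the phosphatase calcineurin, and the dephosphorylated proteins enter the nucleus, where they often bind DNA beside AP-1. NFAT5 lacks the calcineurin-docking region and is known for driving osmoprotective genes under hypertonic stress. In T cells NFATc1 is also known for an inducible short isoform made from its first promoter and a proximal polyadenylation site.

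The deposited gene counts are StringTie estimates derived from coverage, so their totals of 59.6 M to 449 M in Ag and 332 M to 639 M in Ag+Costim are not read numbers. Ag replicate 3 had the lowest of these totals. The lowest count of a tested member in any library was 1252, for Nfat5 in Ag replicate 3. The Ag libraries stood further apart than the Ag+Costim libraries. Ag replicates 1 and 4 held 548 and 584 CPM, counts scaled to one common library size, summed over 10 cell-cycle genes, against 2743 to 5039 in the other Ag libraries and 4446 to 5362 in Ag+Costim. For 7 naive T cell genes the same 2 libraries held 3479 and 3962 CPM, against 1416 to 1975 in the other Ag libraries and 1398 to 2296 in Ag+Costim. In Ag replicates 2 and 5, 21779 and 20714 genes had a count, against 28727 to 30340 in Ag+Costim. Ag replicates 1, 3 and 4 lay above every Ag+Costim library, at 48058, 51778 and 40441 genes, with the most in the library of lowest total. The 6 CD8 T cell markers summed to 3122 to 6140 CPM in Ag and 4132 to 5039 in Ag+Costim. The 5 erythroid markers summed to 14.7 to 1102 CPM in Ag, highest in replicate 3, and to 3.80 to 39.4 in Ag+Costim. The 6 B cell markers summed to 18.5 to 305 CPM in Ag, again highest in replicate 3, and to 14.6 to 32.6 in Ag+Costim. The 4 CD4 T cell markers, with Foxp3 under 1 CPM in every library, summed to 3.74 to 26.4 CPM in Ag and 3.16 to 8.20 in Ag+Costim. That sum includes Cd40lg, which is also on the list of NFAT targets below and had 10.1 CPM in Ag replicate 4. Cd4 itself had 0.0347 to 5.07 CPM in Ag, highest in replicate 3, and 0.0618 to 0.923 in Ag+Costim. The 6 myeloid markers summed to 53.3 to 133 and 84.3 to 173 CPM, and the 3 NK cell markers to 25.1 to 98.6 and 54.1 to 102 CPM. The part of these differences in the results that follow was not tested, apart from the values given without single libraries. In such bulk samples, fewer cells of a type and less RNA per cell cannot be told apart.

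At the level of whole genes, Nfatc2 was higher and Nfat5 lower in Ag+Costim by CPM scaled with the trimmed mean of M values (TMM), while the Ag+Costim values of Nfatc1 and Nfatc3 lay inside the range of the Ag values. No member passed edgeR's quasi-likelihood test at a Benjamini-Hochberg (BH) adjusted p of 0.05. That test called 0 of 24262 genes (0%), while 1915 genes were higher (7.89%) and 2586 lower (10.7%) in Ag+Costim at an unadjusted p under 0.05.

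Nfatc1 (ENSMUSG00000033016.16, GRCm38 chromosome 18, 80606205 to 80713071, minus strand), the NFAT gene known for strong induction by receptor signalling, was the most abundant member. It had 276, 227, 187, 398 and 205 CPM in Ag replicates 1 to 5 and 261, 272, 315, 283 and 317 CPM in Ag+Costim. The 2 groups overlapped, and Ag replicate 4 was the highest of all 10 libraries. The means were 259 ± 84.7 (SD, n = 5) and 290 ± 25.4 CPM (n = 5), a log2 difference of 0.16 (SE 0.21, edgeR BH-adjusted p = 0.625). Its sign was positive with TMM and with DESeq2's size factors and negative with total-count and upper-quartile scaling. AC123818.1 lies on the opposite strand of this locus. The kit does not mark strand, so reads in bases that the 2 genes share cannot be told apart by strand. The part of such reads in the Nfatc1 counts was not tested.

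Nfatc3 (ENSMUSG00000031902.10, chromosome 8, 106058840 to 106130537, plus strand), expressed in both resting and activated T cells, was the next most abundant. It had 178, 157, 146, 222 and 132 CPM in Ag and 169, 182, 190, 177 and 197 CPM in Ag+Costim. The 5 Ag+Costim values lay inside the range of the Ag values. The log2 difference was 0.13 (SE 0.16, edgeR BH-adjusted p = 0.599), positive with TMM and negative with the other 3 scalings. Esrp2 and Gm27956 overlap this locus on the opposite strand, and reads in bases they share with Nfatc3 cannot be told apart by strand. The part of such reads in the Nfatc3 counts was not tested.

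Nfatc2 (ENSMUSG00000027544.16, chromosome 2, 168476410 to 168601657, minus strand) encodes the NFAT protein already present in resting T cells. In TMM-scaled CPM it was the only member whose groups did not overlap. It had 44.9, 56.4, 59.6, 56.7 and 31.0 CPM in Ag and 66.4, 61.3, 64.4, 71.7 and 73.6 CPM in Ag+Costim. The highest Ag library, replicate 3, and the lowest Ag+Costim library, replicate 2, differed by under 2 CPM. The means were 49.7 ± 11.9 (SD, n = 5) and 67.5 ± 5.11 CPM (n = 5), and the two-sided exact permutation p was 0.0079, the smallest that the 252 assignments of 5 against 5 libraries allow. Of all genes tested, 4.48% had non-overlapping values with Ag+Costim higher. The edgeR log2 difference was 0.44 (SE 0.18, unadjusted p = 0.031, BH-adjusted p = 0.26). It was 0.29 with DESeq2's size factors, 0.19 with upper-quartile scaling and 0.125 with total counts (edgeR BH-adjusted p = 0.344, 0.505 and 0.719). With no filter on low counts it was 0.82 (edgeR BH-adjusted p = 0.113).

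Nfat5 (ENSMUSG00000003847.16, chromosome 8, 107293470 to 107379517, plus strand), the osmotic stress factor, was the least abundant of the 4. It had 23.5, 11.02, 17.6, 29.1 and 4.53 CPM in Ag and 7.93, 7.003, 9.74, 8.83 and 8.69 CPM in Ag+Costim. The Ag libraries spread over 6.41-fold and the Ag+Costim libraries over 1.39-fold. Ag replicate 5 lay below every Ag+Costim library and the other 4 Ag libraries above every one. The means were 17.2 ± 9.74 (SD, n = 5) and 8.44 ± 1.03 CPM (n = 5), with a log2 difference of -1.02 (SE 0.40, edgeR unadjusted p = 0.0268, BH-adjusted p = 0.257, exact permutation p = 0.143). The 2 highest values were in Ag replicates 1 and 4, the libraries with the least cell-cycle RNA. Without them the log2 difference was -0.37 (edgeR BH-adjusted p = 0.589). Without the same 2 libraries the log2 difference was 0.50 for Nfatc1, 0.35 for Nfatc3 and 0.48 for Nfatc2 (edgeR BH-adjusted p = 0.156, 0.231 and 0.358).

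**Figure D1:**
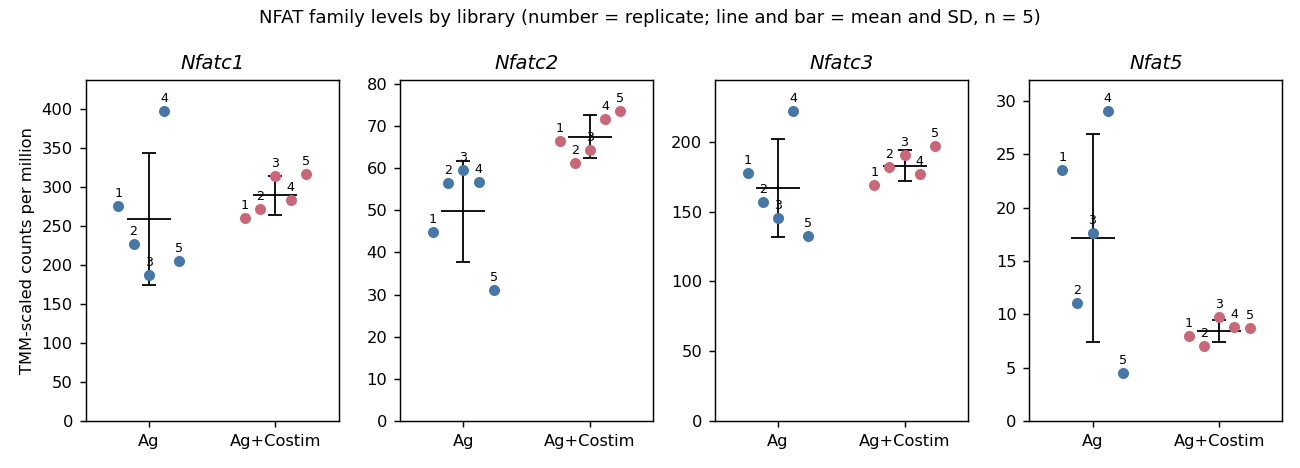
Gene level of each NFAT member by library, as TMM-scaled CPM on a linear axis from 0, with numbered points for 5 Ag and 5 Ag+Costim libraries, a line for the mean and bars for the SD. Nfatc2 is the member whose points do not overlap, at 31.0 to 59.6 against 61.3 to 73.6 CPM, and Nfat5 spreads from 4.53 to 29.1 CPM in Ag.

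The calls depended on the tool. DESeq2 called Nfat5 lower (log2 difference -1.19, BH-adjusted p = 0.041), as it did 19.7% of the 36117 genes it tested, and called 2.57% higher. Limma voom with a quality weight for each library called Nfat5 lower (-1.58, BH-adjusted p = 4.43e-05) beside 26.3% of genes. It called Nfatc2 higher (0.38, BH-adjusted p = 0.0185) beside 25.7% of genes. With Ag replicates 2 and 5 left out, edgeR called Nfat5 lower (-1.36, BH-adjusted p = 0.00083) beside 30.8% of genes and Nfatc2 higher (0.45, BH-adjusted p = 0.014) beside 17.9%. Those 2 libraries had the lowest Nfat5 in Ag, 11.02 and 4.53 CPM. Their cell-cycle sums, 4670 and 5039 CPM, were the Ag values nearest to Ag+Costim. The fit without them is thus no independent check of the Nfat5 difference. Nfatc1 and Nfatc3 were called in none of these 3 fits. The shares of all genes called in the same direction were of this size in the same fits, so the calls do not set the members apart.

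The median gene was itself lower in Ag+Costim, by a log2 difference of -0.32 with TMM, -0.48 with DESeq2's size factors, -0.65 with total counts and -0.58 with upper-quartile scaling. Relative to that median, Nfatc1 lay 0.48 to 0.49 higher over the 4 scalings on the log2 scale. Nfatc3 lay 0.45 to 0.46 higher and Nfatc2 0.76 to 0.78 higher. Nfat5 lay at -0.71 to -0.79 relative to it. That median covers all 24262 genes tested, at any level, and was not matched to the level of the members.

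The order of the members was the same in all 10 libraries once counts were divided by transcript length. Nfatc1 stood above Nfatc3 by 1.60 to 2.15 times, Nfatc3 above Nfatc2 by 2.46 to 4.61 times, and Nfatc2 above Nfat5 by 2.52 to 11.1 times. No neighbouring pair changed places in any library. The fifth family gene, Nfatc4 (ENSMUSG00000023411.12), was listed at 0 in 6 of the 10 libraries and reached at most 1.46 CPM, in Ag replicate 3, and was too low to be tested.

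As a share of the family's summed per-length level, Nfatc1 held 57.8% in Ag and 59.3% in Ag+Costim (exact permutation p = 0.548). Nfatc3 held 30.9% and 29.8% (exact permutation p = 0.135), and Nfatc2 8.88% and 9.87% (exact permutation p = 0.476). The Nfat5 share was 2.94, 1.76, 2.83, 2.55 and 0.876% in Ag and 1.13, 0.902, 1.17, 0.955 and 1.01% in Ag+Costim. Its groups overlapped through Ag replicate 5 alone. The means were 2.19 ± 0.869% (SD, n = 5) and 1.03 ± 0.114% (n = 5), with an exact permutation p of 0.0476. Leaving out 1 library at a time gave p between 0.00794 and 0.0794, and leaving out any of the 5 Ag+Costim libraries put it above 0.05 at differences of -1.13 to -1.19 points.

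Nfatc1 was transcribed from both of its promoters and processed to both of its ends in every library, and neither choice differed between groups by more than the spread of the libraries. The upstream promoter P1, which begins the inducible alpha isoforms, lies at 80712766 to 80713071. The downstream promoter P2, which begins the beta isoforms, lies at 80708173. Counts on P1 transcripts made up 39.8, 45.12, 40.7, 51.1 and 38.5% of Nfatc1 in Ag and 39.2, 40.1, 46.1, 43.2 and 39.3% in Ag+Costim. The means were 43.0 ± 5.17% and 41.6 ± 2.99% (SD, n = 5 each, exact permutation p = 0.603).

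The proximal end at 80647435 gives the short proteins of 703 and 717 codons, which lack the long C-terminal part. The distal end at 80606205 gives proteins of 813 to 939 codons. The proximal share was 43.5, 53.9, 41.1, 44.6 and 48.8% in Ag and 41.7, 42.7, 44.6, 51.2 and 44.3% in Ag+Costim (means 46.4 and 44.9%, exact permutation p = 0.627, n = 5 each). P1 transcripts ended proximally in 36.0% of their counts in Ag and 36.7% in Ag+Costim, and P2 transcripts in 54.0 and 50.5%. The P2 value was the higher one in 9 of 10 libraries, Ag+Costim replicate 3 being the exception. The difference between groups had an exact permutation p of 0.825 within P1 and 0.437 within P2. The P1 transcripts with the proximal end, which encode the short inducible isoform, ran from 22.6 to 80.6 CPM in Ag and from 31.8 to 65.6 CPM in Ag+Costim.

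Of the 6 coding transcripts, Nfatc1-201 (P2, proximal end) was the most abundant, at 30.7% of Nfatc1 in Ag and 29.5% in Ag+Costim. Nfatc1-206 (P1, proximal end) held 15.6 and 15.4%. Nfatc1-202 (P1, distal end) held 13.8 and 15.6%, and Nfatc1-203 (P2, distal end) 11.5 and 9.96%. Nfatc1-205 (P2, distal end) held 11.7, 12.7, 20.5, 11.3 and 17.6% in Ag and 21.2, 18.4, 22.0, 15.5 and 17.8% in Ag+Costim (exact permutation p = 0.0794). Nfatc1-204 (P1, distal end) held 13.6 and 10.6% (exact permutation p = 0.127). Nfatc1-203 and Nfatc1-204 differ from Nfatc1-205 and Nfatc1-202 by a 289-base extension of an exon at an alternative donor site. That extension was included in 46.9% of distal counts in Ag and 37.2% in Ag+Costim (exact permutation p = 0.119), with values of 34.6 to 57.2% and 33.8 to 40.6%. The authors' percent-spliced-in value (PSI), the fraction of transcripts that include it, was 0.458 in Ag and 0.409 in Ag+Costim for the same event.

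**Figure D2:**
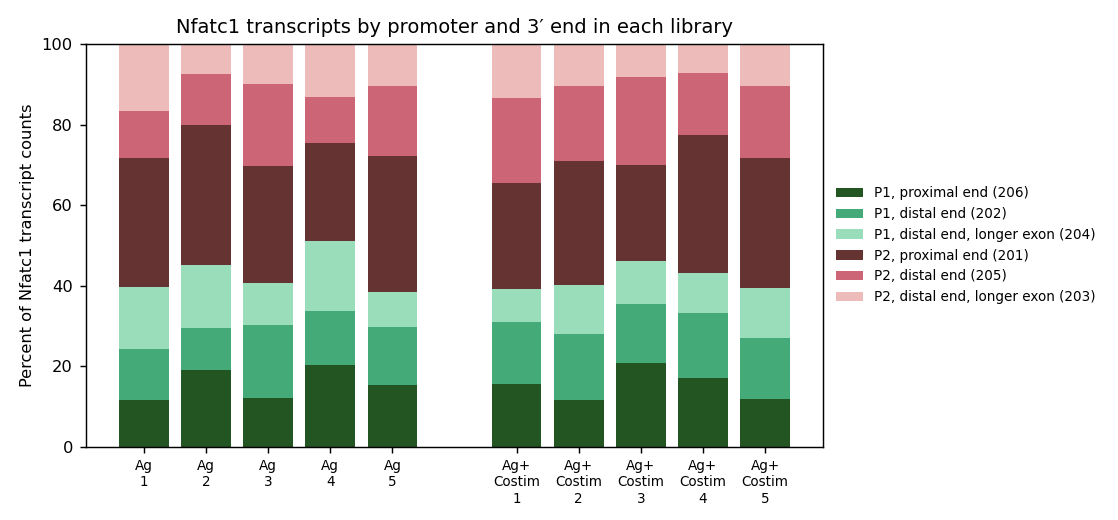
Stacked bars of the 6 coding Nfatc1 transcripts in each of 5 Ag and 5 Ag+Costim libraries, as a percent of the gene's transcript counts, coloured by promoter (P1 green, P2 red) and end. All 6 are present in every library, and the P1 part runs from 38.5 to 51.1% in Ag and 39.2 to 46.1% in Ag+Costim.

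The promoters of the other 3 members are shown since the counts below separate transcripts by start, and since NFAT proteins recognise the GGAAA core that stands in capitals in them on either strand, as GGAAA or TTTCC. Each run is the 250 bases before a RefSeq start (GRCm38.p6), 5′ to 3′ on the gene's strand.
Nfatc2 upstream start, chr2:168601658-168601907, minus strand: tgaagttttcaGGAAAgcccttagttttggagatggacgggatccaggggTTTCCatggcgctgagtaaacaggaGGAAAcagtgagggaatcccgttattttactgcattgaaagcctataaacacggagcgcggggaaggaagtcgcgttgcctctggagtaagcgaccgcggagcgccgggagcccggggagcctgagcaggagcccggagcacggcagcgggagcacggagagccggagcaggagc
Nfatc2 main start, chr2:168590366-168590615, minus strand: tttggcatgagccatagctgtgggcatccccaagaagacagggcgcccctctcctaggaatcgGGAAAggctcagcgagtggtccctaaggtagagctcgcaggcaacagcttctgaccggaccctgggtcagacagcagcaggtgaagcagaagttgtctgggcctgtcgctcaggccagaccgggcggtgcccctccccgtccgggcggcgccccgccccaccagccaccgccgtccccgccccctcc
Nfatc3 upstream start, chr8:106058568-106058817, plus strand: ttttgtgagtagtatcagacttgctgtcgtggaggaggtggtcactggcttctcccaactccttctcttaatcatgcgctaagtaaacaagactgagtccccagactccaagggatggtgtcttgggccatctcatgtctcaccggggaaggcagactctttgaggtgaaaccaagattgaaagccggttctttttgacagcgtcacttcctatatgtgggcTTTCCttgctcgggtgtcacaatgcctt
Nfatc3 main start, chr8:106059340-106059589, plus strand: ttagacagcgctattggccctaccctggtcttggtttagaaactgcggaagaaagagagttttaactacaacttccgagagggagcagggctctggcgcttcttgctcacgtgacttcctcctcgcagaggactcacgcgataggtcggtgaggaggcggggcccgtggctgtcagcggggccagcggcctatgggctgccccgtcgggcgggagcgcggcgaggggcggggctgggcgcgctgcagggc
Nfat5 start, chr8:107293220-107293469, plus strand: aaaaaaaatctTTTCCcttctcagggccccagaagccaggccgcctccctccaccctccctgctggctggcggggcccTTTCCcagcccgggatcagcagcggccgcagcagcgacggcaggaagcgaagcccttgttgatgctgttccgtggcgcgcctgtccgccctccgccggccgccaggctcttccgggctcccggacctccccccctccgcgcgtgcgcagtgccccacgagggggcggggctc

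The Nfatc2 upstream window held 3 GGAAA cores and the main one 1. The Nfatc3 upstream window held 1 and the main one 0, and the Nfat5 window held 2. Of 32851 promoter windows of this length, 55.6% held at least 1 core on either strand. GC boxes (GGGCGG on either strand, in 32.7% of windows) numbered 4 at the main Nfatc2 start, 2 at the main Nfatc3 start and 2 at Nfat5, and 0 at both upstream starts. A CCAAT box (either strand, in 33.8% of windows) was found only at the main Nfatc3 start. The AP-1 motif TGANTCA (in 6.75% of windows) was in none of the 5. These are matches of letters, not sites.

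For Nfatc2 nearly all counts belonged to the main start. Transcripts that begin at 168590191 to 168590365 held 96.8 to 100% of Nfatc2 counts in Ag and 99.5 to 99.99% in Ag+Costim. The upstream start at 168601632 to 168601657 held 3.19% in Ag replicate 3 and under 1% in each other library. From the main start, Nfatc2-202 and Nfatc2-204 shared the gene almost evenly. Nfatc2-202 held 51.9, 60.6, 22.8, 34.4 and 61.9% in Ag and 47.7, 57.1, 42.6, 51.0 and 43.4% in Ag+Costim. Nfatc2-204 held 38.6, 34.9, 65.6, 55.9 and 32.1% and then 47.7, 38.2, 55.1, 46.7 and 52.4%. The 2 transcripts thus exchanged rank among the Ag libraries, and Ag replicates 3 and 4 were the Ag libraries with more of Nfatc2-204.

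Beside their starts the transcripts differ by an 86-base exon of Nfatc2-204, which holds its stop codon and gives 923 rather than 927 codons. Its coding part is shown with the stop in capitals.
Nfatc2 86-base exon, first 44 bases, chr2:168486728-168486771, minus strand (GRCm38, GENCODE M21): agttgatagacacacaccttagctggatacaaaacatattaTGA

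By transcript counts, inclusion of this exon was 49.9 ± 17.4% for the Ag libraries and 49.8 ± 6.43% for Ag+Costim (mean ± SD of 5, exact permutation p = 0.992). The authors' PSI for it was 0.464 and 0.525. Both sources put it near an even split in both groups. The authors' PSI also divided the main start. The first 105 bases of the Nfatc2-204 start had PSI 0.241 in Ag and 0.104 in Ag+Costim, and the next 69 bases, where Nfatc2-202 begins, 0.575 and 0.746. The following 130 bases, where Nfatc2-201 begins, had 0.197 and 0.157. By transcript counts Nfatc2-204 held 45.4 and 48.0%, Nfatc2-202 46.3 and 48.35% and Nfatc2-201 0 and 0.0161%. At this start the 2 sources thus differed in level and, for Nfatc2-204, in the sign of the difference. The cause was not tested.

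Nfatc2 counts on retained-intron transcripts, non-coding annotated forms that keep an intron, were lower in Ag+Costim. They held 8.78, 4.43, 8.47, 8.90 and 5.94% of the gene in Ag and 4.50, 4.34, 2.29, 2.24 and 3.65% in Ag+Costim. Only Ag replicate 2 fell below an Ag+Costim library. The means were 7.30 ± 2.01% and 3.40 ± 1.09% (SD, n = 5 each, exact permutation p = 0.0159, 0.294 after BH adjustment over 6616 genes). Of the 2 such transcripts, Nfatc2-206 held 4.07% in Ag and 1.57% in Ag+Costim, and Nfatc2-207 held 3.24 and 1.83%. The share of counts at the common distal end, which is mostly what those transcripts leave, was 91.8% in Ag and 96.4% in Ag+Costim (exact permutation p = 0.0238, 0.467 after BH adjustment over 48263 end groups). Without Ag+Costim replicate 3, 4 or 5 the unadjusted p was 0.0635, 0.0635 or 0.0556. Over protein-coding transcripts only, the difference at this end turned from 4.61 to -0.112 points (exact permutation p = 0.0476).

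By transcript counts most of Nfatc3 was assigned to Nfatc3-201, which encodes 1076 codons from the start at 106059633. That transcript held 93.6, 94.1, 93.7, 91.6 and 91.0% of Nfatc3 in Ag and 95.6, 94.1, 94.2, 96.6 and 93.5% in Ag+Costim (exact permutation p = 0.0714). Nfatc3-202, from the upstream start at 106058840, held 4.12 and 3.67%. It contains a 104-base exon whose coding part ends in the stop codon shown in capitals and which replaces the C-terminus of Nfatc3-201.
Nfatc3 104-base exon, first 101 bases, chr8:106119322-106119422, plus strand (GRCm38, GENCODE M21): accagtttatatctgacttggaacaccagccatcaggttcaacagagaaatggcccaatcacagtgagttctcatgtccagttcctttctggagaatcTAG

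Inclusion of this exon by counts was 4.23 ± 1.71% for the Ag libraries and 3.71 ± 1.29% for Ag+Costim (mean ± SD of 5, exact permutation p = 0.635). The authors' PSI for it was higher, at 0.191 and 0.136, and was likewise lower in Ag+Costim. The 2 sources differed in level, and the cause was not tested.

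Nfatc3 counts on retained-intron transcripts did not overlap between groups. They held 3.31, 2.00, 2.92, 4.44 and 1.72% in Ag and 1.70, 1.1, 0.918, 0.681 and 1.46% in Ag+Costim. Ag replicate 5 and Ag+Costim replicate 1 were nearly equal at the boundary. The means were 2.88 ± 1.09% and 1.17 ± 0.41% (SD, n = 5 each, exact permutation p = 0.0079, 0.243 after BH adjustment over 6616 genes). Of those genes, 3.16% did not overlap with Ag+Costim lower. Nfatc3-204 and Nfatc3-205, which lie inside the gene with starts of their own, held 0.799 and 0.806% in Ag and 0.197 and 0.246% in Ag+Costim, and neither overlapped between groups. They were the 2 of the members' start groups that did not overlap, against 2.15% of the 28812 start groups of all genes. They were also 2 of the members' end groups, against 2.21% of 48263. Nfatc1, Nfatc2, Nfatc3 and Nfat5 have 3, 3, 4 and 4 start groups and 3, 5, 6 and 9 end groups. The same 2 transcripts thus stand behind both counts and belong to the retained-intron share above. After BH adjustment 0 start groups and 0 end groups passed, with 2684 and 4631 at an unadjusted exact permutation p under 0.05.

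The shares of retained-intron transcripts moved beside a difference over all genes. The median gene held 3.44% in Ag and 1.62% in Ag+Costim. By library the median was 4.17, 1.11, 4.84, 3.37 and 0.707% in Ag and 1.14 to 1.75% in Ag+Costim, so that Ag replicates 2 and 5 lay below every Ag+Costim library. In those 2 libraries Nfatc3 held 2.00 and 1.72%, the second of them close to the highest Ag+Costim value of 1.70%, in replicate 1. Without Ag replicates 1 and 4 the differences were -2.87 points for Nfatc2 and -1.04 points for Nfatc3 (exact permutation p = 0.0357 each). The part of the all-gene difference in the values of Nfatc2 and Nfatc3 was not tested.

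Nfat5 transcripts were the least settled of the family, and on average most of the gene's counts fell on forms not annotated as protein-coding. Protein-coding transcripts held 53.0, 2.69, 0, 47.0 and 13.7% of Nfat5 in Ag and 57.7, 40.1, 30.4, 38.8 and 16.4% in Ag+Costim (exact permutation p = 0.333). The 0 in Ag replicate 3 came from the library with the fewest counts of this gene. The share was high in Ag replicates 1 and 4, the same libraries in which the gene level was highest. Nfat5-206, annotated as a target of nonsense-mediated decay, held 6.85 to 57.5% in Ag and 0 to 40.6% in Ag+Costim. Nfat5-212, a retained-intron form that ends early, was steadier, at 17.1 to 38.4% and 22.8 to 34.4%. Nfat5-214, which encodes 1552 codons, held 44.1% and 34.3% in Ag replicates 1 and 4, was listed at 0 in the other 3 Ag libraries, and ranged from 0 to 31.6% in Ag+Costim. Nfat5-202, from the internal start at 107338508 to 107338913, held 0 to 10.5% in Ag and 0.621 to 38.9% in Ag+Costim. The main start at 107293470 to 107293559 accordingly held 88.5 to 99.1% in Ag and 59.3 to 98.2% in Ag+Costim (exact permutation p = 0.214), with the low value in Ag+Costim replicate 1. Without that library the difference was -2.69 points. The remaining Nfat5 forms above 5% in a group, Nfat5-203 and Nfat5-213, held 2.92 and 7.02% in Ag and 5.54 and 4.13% in Ag+Costim.

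**Figure D3:**
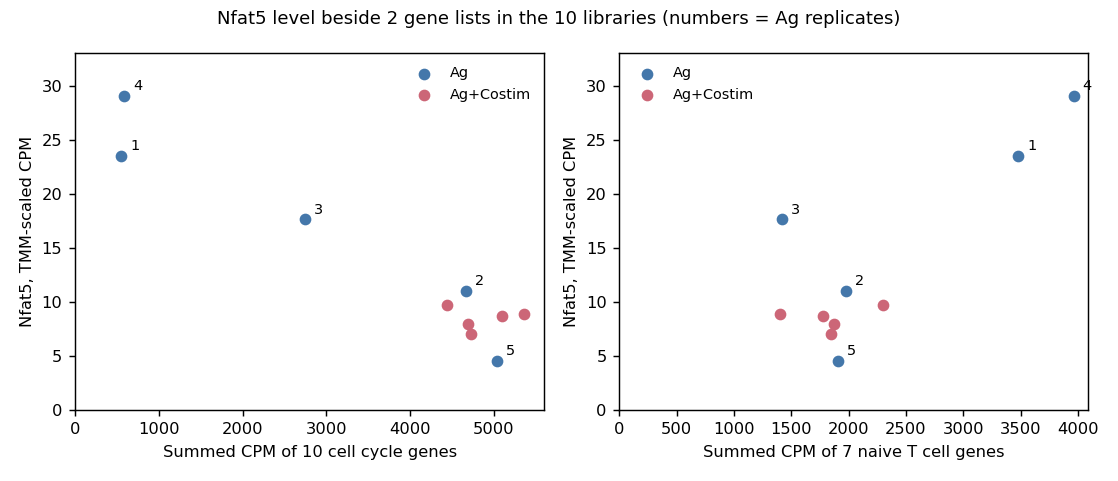
Nfat5 level by library against the summed level of the cell-cycle list and of the naive T cell list, all as CPM on linear axes, for 5 Ag and 5 Ag+Costim libraries. Ag replicates 1 and 4 lie apart at 548 and 584 CPM of cell-cycle genes and hold the highest Nfat5, 23.5 and 29.1 CPM, while the Ag+Costim libraries lie together.

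A pair of Nfat5 exons is shown because the first lengthens the reading frame and the second interrupts it. The 54-base exon adds 18 codons without a stop. The 62-base exon of Nfat5-206 and Nfat5-213 brings the stop codon shown in capitals.
Nfat5 54-base exon, chr8:107295581-107295634, plus strand (GRCm38, GENCODE M21): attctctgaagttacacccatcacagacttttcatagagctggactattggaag
Nfat5 62-base exon, first 47 bases, chr8:107338295-107338341, plus strand (GRCm38, GENCODE M21): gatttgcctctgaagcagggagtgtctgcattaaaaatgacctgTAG

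The 54-base exon had the largest PSI difference of the members' 57 events, 0.308 in Ag and 0.604 in Ag+Costim. By transcript counts its inclusion was 87.0 ± 14.6% for the Ag libraries and 82.3 ± 22.1% for Ag+Costim (mean ± SD of 5, exact permutation p = 0.667). The 2 sources differed both in level and in the sign of the difference, and the count-based values of 62.4 to 97.3% and 43.3 to 95.5% overlapped. The PSI file holds no entry for the 62-base exon. From the counts that exon was included in 15.5, 95.4, 100, 31.2 and 84.2% in Ag and 48.3, 36.9, 59.9, 60.5 and 74.3% in Ag+Costim. The Ag libraries fell into low values in replicates 1 and 4 and high values in the other 3, and the Ag+Costim libraries lay between them (exact permutation p = 0.619).

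No member was called by edgeR's test for differential transcript usage, which called 31 of 10441 genes (0.297%) at a BH-adjusted p under 0.05 with a mean share change over 0.1. No member was called with limma's diffSplice, with a filter of 50 counts or with Ag replicates 2 and 5 left out either.

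The authors deposited 1 PSI value per group, without replicates, so PSI differences are given with no test. Of the members' 57 events 14 differed by over 0.05, the study's own minimum, which is 24.6%, against 11.9% of 138940 events of all genes. Among events of genes at 10 CPM or more the share was 6.71% of 99071. By gene, 5 of 19 Nfat5 events, 5 of 15 Nfatc2 events, 3 of 13 Nfatc3 events and 1 of 10 Nfatc1 events were past it. The 14 events are not independent, since neighbouring starts and ends of one gene share their total. With a minimum of 0.1 the members had 5 events (8.77%) and all genes 5.87%.

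Of the members' 39 core exons, 36 had a PSI over 0.9 in both groups. The 3 others were the Nfat5 54-base, Nfatc2 86-base and Nfatc3 104-base exons given above. The median absolute difference over the 39 exons was 0.00658. Differences over 0.05 lay otherwise at gene starts and ends. The first exon of Nfatc1 P2 had PSI 0.523 in Ag and 0.586 in Ag+Costim. The 2 last segments of Nfat5, whose ends are 8 bases apart, had 0.963 and 0.037 in Ag and 0.781 and 0.219 in Ag+Costim. By transcript counts Nfat5-201, the form that ends at the first of them, held 0.332% in Ag and 0% in Ag+Costim. The Nfatc3 end at 106128042 had 0.529 and 0.621, and the next at 106128443 had 0.144 and 0.094. The last Nfatc3 end at 106130537, that of Nfatc3-201, had 0.327 and 0.286, while the transcript counts put 92.8 and 94.8% of the gene there. The 2 sources thus differed in level at this end too, and the cause was not tested. For Nfatc2 the end at 168519098 had PSI 0.259 and 0.31, and the next at 168518203 had 0.74 and 0.689. By transcript counts the first held 0 and 0.0161% of Nfatc2, and the ends at 168518195 to 168518203 held 0.942 and 0.216%. The common distal end held 91.8 and 96.4% of the counts. The 2 sources differed in level here as well, and the cause was not tested. For Nfat5 the start at 107293509 had 0.876 and 0.952, and the one at 107293559 had 0.125 and 0.0481. The start at 107293470 had PSI 0.0575 and 0.0481. By transcript counts Nfat5-210 and Nfat5-211, which begin at 107293509, held 2.306 and 0.07915% in Ag. In Ag+Costim they held 2.99 and 2.9%. Nfat5-206, 1 of the transcripts that begin at 107293470, held 33.75% in Ag and 25.81% in Ag+Costim. The 2 sources thus differed in level at these Nfat5 starts, and the cause was not tested.

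**Figure D4:**
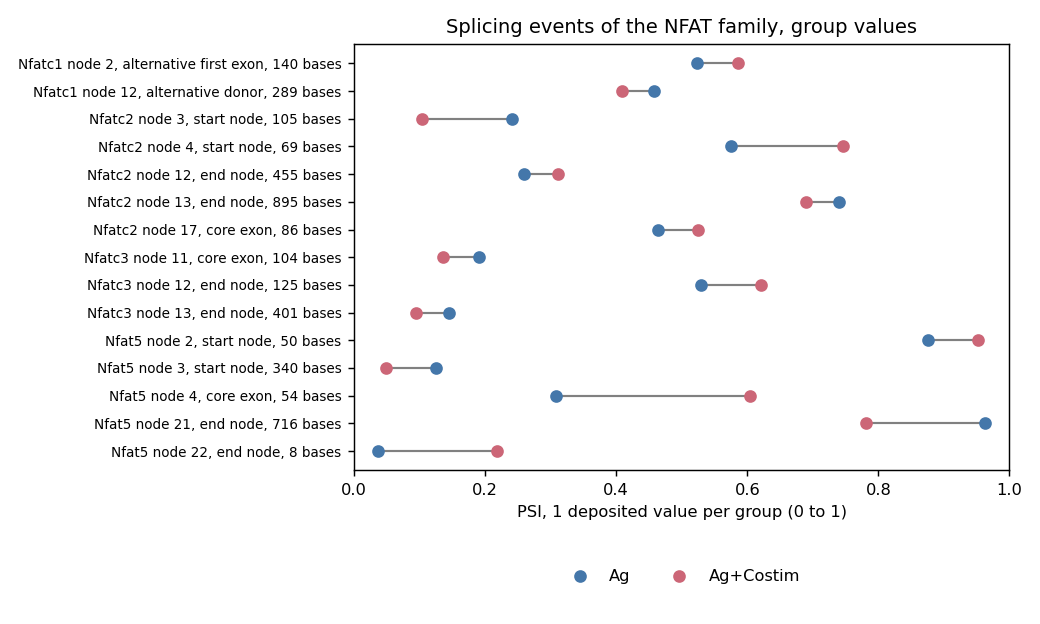
PSI (0 to 1) of the 14 member events that differ by over 0.05 and of the Nfatc1 alternative donor, as 1 authors' value for Ag and 1 for Ag+Costim joined by a line, with no replicates. The Nfat5 54-base exon has the longest line, from 0.308 to 0.604, and most of the other events are starts or ends of genes.

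The other genes of the calcium and NFAT pathway were taken from a list of 72 genes by role, of which 71 could be tested by edgeR. None was called by it. At an unadjusted p under 0.05, 11 were higher and 7 lower in Ag+Costim, beside the 7.89% and 10.7% of all genes. The 5 values of Ag+Costim lay above the 5 of Ag for 6 genes (8.45%, beside the 4.48% of all genes) and below them for 0, beside 1.13% of all genes. The list's median log2 difference was 0.19 and that of all genes, not matched for level, -0.32. DESeq2 called 7 of the list higher and 8 lower, beside 2.57% and 19.7% of all genes. Limma voom called 29 higher and 25 lower, beside 25.7% and 26.3%. Without Ag replicates 2 and 5 edgeR called 29 higher and 13 lower, beside 17.9% and 30.8%.

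Upstream of calcineurin, the 9 genes of calcium entry and release had a median log2 difference of -0.28 and the 3 calmodulin genes 0.33. Of the 4 calcineurin subunits Ppp3ca, the alpha catalytic subunit, was one of the 6. It had 28.3, 39.4, 41.9, 32.6 and 31.2 CPM in Ag and 43.3, 59.9, 58.0, 45.9 and 44.5 CPM in Ag+Costim (log2 difference 0.54, SE 0.16, edgeR BH-adjusted p = 0.204). The calcineurin inhibitors and binding proteins (8 tested) and the NFAT kinases (10) both had a median of 0.24.

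Both general transport receptors on the list were among the 6. Kpnb1, the importin that carries cargo such as NFAT into the nucleus, had 73.5, 126, 109, 75.9 and 109 CPM in Ag and 163, 172, 165, 201 and 195 CPM in Ag+Costim (log2 difference 0.86, SE 0.18, edgeR BH-adjusted p = 0.141). Xpo1, the exportin, had 70.3, 164, 162, 77.8 and 104 CPM in Ag and 180, 174, 187, 222 and 233 CPM in Ag+Costim (0.78, SE 0.25, edgeR BH-adjusted p = 0.229). In both genes Ag replicates 1 and 4 were the lowest libraries, the opposite of their place for Nfat5.

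Of the 8 partners, Irf4 and Ikzf1 did not overlap. Irf4, which binds DNA with BATF and AP-1 in activated T cells, had 7.95, 20.6, 20.2, 18.4 and 18.0 CPM in Ag and 29.8, 27.4, 25.5, 38.5 and 33.8 CPM in Ag+Costim (log2 difference 0.86, SE 0.25, edgeR BH-adjusted p = 0.201). Ikzf1, which encodes the lymphoid factor Ikaros, had 142, 136, 149, 159 and 118 CPM in Ag and 235, 241, 218, 270 and 247 CPM in Ag+Costim (0.78, SE 0.13, edgeR BH-adjusted p = 0.117).

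The 18 reported NFAT targets in T cells, such as cytokines and inhibitory receptors, had a median log2 difference of -0.36, near that of all genes, and ran from -3.06 to 1.38. None of them was separated between groups. The 6 osmotic targets of NFAT5 had a median of 0.44, with 5 above 0 and 1 below, while Nfat5 itself was at -1.02. The lower one was Slc5a3, at -0.81 (SE 0.37, edgeR BH-adjusted p = 0.271). Of the higher ones, Slc6a12 had at most 0.817 CPM, in Ag replicate 3. Hspa1b had 16.06 CPM in Ag+Costim replicate 4, at most 4.946 in the other Ag+Costim libraries and at most 6.607 in Ag. Slc38a2, an amino acid transporter, had 84.6, 108, 97.8, 93.7 and 102 CPM in Ag and 149, 137, 120, 151 and 131 CPM in Ag+Costim (log2 difference 0.50, SE 0.13, edgeR BH-adjusted p = 0.169).

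**Figure D5:**
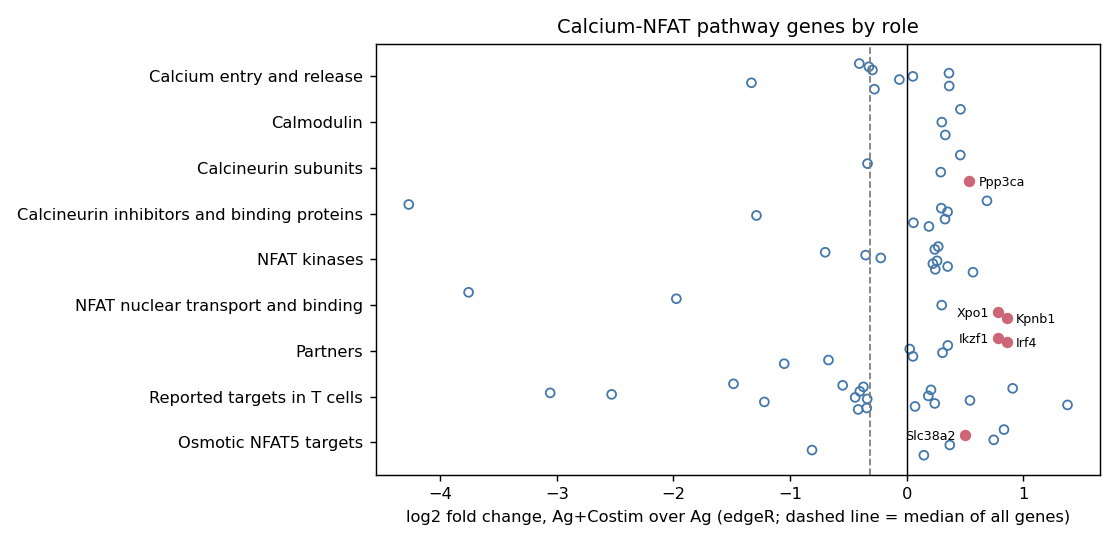
Log2 difference of 71 calcium and NFAT pathway genes, Ag+Costim over Ag by edgeR, by role, with a dashed line at the median of all genes. Filled points are the 6 genes whose groups do not overlap, all on the higher side at 0.50 to 0.86.

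By the correlation of log2 CPM over the 10 libraries, among 8619 genes at 10 CPM or more, Nfatc1 was most like Zfp319 (Pearson r = 0.964), Nfatc3 (0.962) and Usp38 (0.954). Nfatc3 was most like Zfp319 (0.977), Vps41 (0.963) and Nfatc1 (0.962), so that the 2 most abundant members were close neighbours of one another. Nfatc2 was most like Cep135 (0.969), Ppp4r1 (0.965) and Aasdh (0.965). Nfat5 was most like Dag1 (0.979), Klhl24 (0.969) and Chd8 (0.967). Nfatc2 and Nfat5 had an r of 0.125 with each other. The 10 points share the group difference and the spread of the Ag libraries, and these values are a description.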

How the data were processed

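RNA from sorted OT-I CD8+ T cells was amplified with SMART-Seq v4 and made into Nextera XT libraries, which do not mark strand. Per the labels, the authors used HISAT2 2.1.0, SAMtools 1.9 and StringTie 2.1.0 on mm10 (GRCm38). They deposited estimated counts per gene and transcript, derived from coverage, for 5 Ag and 5 Ag+Costim samples. They also deposited PSI, a fraction from Whippet, as 1 value per group, beside columns of their own comparison. Those columns, the authors' deposited difference, probability and entropy score values, were not used. Depth behind a PSI value is unknown. The Naive samples were not analysed here.

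Counts were used as deposited for 55536 genes and 141862 transcripts with a GENCODE M21 identifier. The 26345 entries without one, with 0.0458 to 0.308% of counts per library, were left out. For gene levels, edgeR 4.0.16 was fitted to the counts (filterByExpr, TMM scaling, quasi-likelihood F test, BH over 24262 genes), with DESeq2 1.42.0 and limma 3.58.1 (voom) as alternatives in R 4.3.3. CPM is TMM-scaled. Transcript usage was tested with edgeR's diffSpliceDGE. Shares of a gene's transcript counts were compared by a two-sided exact permutation test over all 252 assignments of 5 against 5 libraries. Starts within 500 bases and ends within 100 bases were grouped. Transcript shares, exon inclusion from counts and retained-intron shares depend on how StringTie divides coverage among annotated forms. The last 2 of these measures were chosen after the files were seen. The scripts were tested on simulated data. Sequences came from RefSeq promoter windows (5 matched, for 3 members) and GENCODE transcripts.

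The members and lists were chosen with earlier results of these data known. Named were all members, transcripts with a mean share of 5% or more in a group, PSI events that differ by over 0.05, pathway genes whose groups do not overlap, and the 3 genes nearest to each member by Pearson r. The osmotic targets Slc5a3, Slc6a12 and Hspa1b fall outside this rule and were named after their values were seen. Nfatc2-206, Nfatc2-207, Nfatc3-202, Nfatc3-204 and Nfatc3-205 lie under 5% and were named after their values were seen, Nfatc3-202 through its PSI event. Nfat5-210 and Nfat5-211, also under 5% on average, were named through the PSI event of their start. Alternatives were other scalings, no count filter, each library left out, Ag replicates 2 and 5 left out, protein-coding transcripts only, shares per length and a replicate block. Leaving out Ag replicates 1 and 4 was added after seeing the data.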

Additional observations from a re-analysis of the deposited data

Results flagged for a closer look

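In 36 groups of 5 libraries tested for a sample far from the others, 2 stood out, where chance alone picks about 1 in 20 groups. The share of Nfatc2 counts at the main start was 96.8% in Ag replicate 3, below a nearest value of 99.2% in the other Ag libraries, which reached 100%. The same library had the most erythroid and B cell marker RNA and the fewest counts, and the part of these in the value was not tested. The share of Nfatc3 counts at the main start was 91.5% in Ag replicate 5, below a nearest value of 94.3% and a highest of 95.4% in the other Ag libraries.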

How the results depend on the processing

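Of 384 recomputed values, 320 were labelled the same and 26 turned direction. The same meant, for effects, the same direction and side of the threshold, and for counts of genes or events a similar count. The causes were not tested. Genes called numbered 8046 with DESeq2, 12632 with limma voom and 16322 without Ag replicates 2 and 5, and pathway genes 15, 54 and 42, against 0 by edgeR. In that order Nfat5 was -1.19, -1.58 and -1.36 (log2), and Nfatc2 was called with the last 2, at 0.382 and 0.452. Nfatc1 turned to -0.137 with voom, -0.168 with total counts and -0.0939 with upper-quartile scaling. Nfatc3 turned to -0.00878 with DESeq2, -0.0812 with voom, -0.0195 with edgeR on DESeq2's size factors, -0.191 with total counts and -0.123 with upper quartile. Changed usage was called for 145 genes with diffSplice, 19 with a 50-count filter and 483 without Ag replicates 2 and 5. Without those 2 libraries the leading Nfatc1 transcript's share differed by 1.1 points, the Nfatc1 distal end by -1.85 and the Nfatc2 main start by 1.35 (exact permutation p = 0.0179). With protein-coding transcripts only, the Nfatc2 main start differed by -0.0955 and its distal end by -0.112 points (exact permutation p = 0.0476, opposite in direction to the 4.61 points over all transcripts). Per length, the Nfatc3 end differed by 3.91 (exact permutation p = 0.0159) and the Nfat5 end by 0.496 points. At a PSI minimum of 0.1 the members kept 5 events.

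Leaving out each library in turn gave 33 to 93 genes with changed usage. In points, the ranges were -2.8 to 0.222 and -3.85 to 5.94 for the leading Nfatc1 and Nfatc2 transcripts, -0.543 (without Ag replicate 4) to 2.62 for the Nfatc1 P2 start and -0.409 (without Ag replicate 2) to 3.04 for its distal end. They were 3.76 to 5.56 for the Nfatc2 end, 1.55 to 2.34 for the Nfatc3 end (exact permutation p under 0.05 without Ag replicate 2 or Ag+Costim replicate 5) and -4.06 to 3.45 for the Nfat5 end. For family shares they were -0.101 (without Ag replicate 3) to 2.48 for Nfatc1, -1.71 (without Ag replicate 4, exact permutation p = 0.0238) to -0.882 for Nfatc3 and -1.49 to -0.972 for Nfat5. None of the following passed 0.05. Nfatc1 ran from 0.0694 (without Ag replicate 3) to 0.38 (without Ag replicate 4) and Nfatc3 from 0.0796 (without Ag replicate 5) to 0.266 (without Ag replicate 4) on the log2 scale. In points, the Nfatc2 family share ran from 0.48 (without Ag replicate 4) to 2.03 (without Ag replicate 3). The Nfat5 start ran from -12.4 (without Ag+Costim replicate 5) to -2.69 (without Ag+Costim replicate 1). The leading Nfat5 transcript ran from -14.7 (without Ag replicate 1) to -1.49 (without Ag+Costim replicate 1).

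The labels number both groups 1 to 5. Deviations of same-numbered libraries correlated at 0.18, 0.021, -0.093, -0.33 and 0.025, and no library was closest to its own number, so the numbers were not taken as pairs. With a replicate block (sign flips of 5 pairs, lowest possible exact permutation p = 0.0625), the values were 4.61 points for the Nfatc2 end and -1.16 for the Nfat5 family share (p = 0.125 each), and -3.9 and -1.71 for the Nfatc2 and Nfatc3 retained-intron shares (p = 0.0625 each). In edgeR with the block, the BH-adjusted p of Nfat5 was 0.55 and that of Nfatc2 0.51.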
